A study of Homo sapiens with 9 samples.

Results

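The MHC class I antigen presentation pathway was followed through 9 genes in LAN5 cells, an established human neuroblastoma line, after siRNA against MYCN or HAND2. The genes were taken by symbol from the deposited table, which lists 25084 genes: the heavy chains HLA-B, HLA-C and HLA-E, the light chain B2M, the peptide transporter and loading genes TAP1, TAP2 and TAPBP, the peptide-trimming gene ERAP1 and the transcriptional regulator NLRC5. All 9 were found in it. Total RNA was sequenced from 3 groups of 3 libraries. The groups are called siCTR, for a control siRNA, siMYCN, whose siRNA targets MYCN and has the number 2 in its sample names, and siHAND2, whose siRNA targets HAND2 and has the number 3. The siRNAs were delivered by nucleofection, a form of electroporation, and RNA was extracted 72 h later. Every library came from the same parental line, 1 siRNA was used for each target as far as the sample names show, and untreated cells were not analysed here. The labels do not say whether the libraries of a group were separate cultures, so p-values measure the spread between these libraries, which may be technical.

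MHC class I molecules carry peptides from inside the cell to its surface, where cytotoxic T cells read them and natural killer (NK) cells sense their loss. A heavy chain pairs with beta-2-microglobulin, the product of B2M, in the endoplasmic reticulum. Peptides cut by the proteasome enter through the transporter formed by TAP1 and TAP2. ERAP1 trims them, and tapasin, the product of TAPBP, bridges the transporter and the empty heavy chain while a peptide is chosen. NLRC5 and interferon-driven factors turn on many of these genes together. Neuroblastoma is known for low surface class I, and MYCN amplification has long been discussed as one of its correlates. MYCN and HAND2 are helix-loop-helix transcription factors that bind E-box motifs.

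The start regions of 4 of the genes are shown because class I pathway promoters are known to share control elements and the results turn on these genes. Sequences are the 200 bases before the start site in RefSeq (GRCh38.p14), given 5′ to 3′ on the strand of the gene, with matches to the searched motifs in capitals. The regions are chr6:31357180-31357379 for HLA-B, chr6:31272093-31272292 for HLA-C and chr6:32838740-32838939 for TAP2, all on the minus strand, and chr15:44711317-44711516 on the plus strand for B2M.
HLA-B: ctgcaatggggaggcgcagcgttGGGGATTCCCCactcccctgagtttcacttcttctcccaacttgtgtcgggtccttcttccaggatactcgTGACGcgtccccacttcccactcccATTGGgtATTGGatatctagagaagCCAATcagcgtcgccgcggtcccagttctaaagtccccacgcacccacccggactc
HLA-C: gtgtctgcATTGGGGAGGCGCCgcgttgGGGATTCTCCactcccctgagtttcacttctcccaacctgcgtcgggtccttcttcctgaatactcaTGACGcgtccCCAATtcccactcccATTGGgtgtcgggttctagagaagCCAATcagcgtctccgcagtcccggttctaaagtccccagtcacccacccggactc
B2M: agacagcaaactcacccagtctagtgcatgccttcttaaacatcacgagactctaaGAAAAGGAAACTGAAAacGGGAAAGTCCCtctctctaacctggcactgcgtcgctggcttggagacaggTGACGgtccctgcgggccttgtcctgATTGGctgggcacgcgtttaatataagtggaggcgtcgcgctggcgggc
TAP2: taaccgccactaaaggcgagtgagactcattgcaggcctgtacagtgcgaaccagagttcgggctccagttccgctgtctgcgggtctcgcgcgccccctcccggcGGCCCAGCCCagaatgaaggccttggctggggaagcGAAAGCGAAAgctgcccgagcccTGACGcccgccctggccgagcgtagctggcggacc
The motifs, searched on both strands, were the core of the interferon-stimulated response element (GAAA, any 2 bases, GAAA), a kappa B site, bound by NF-kappa B (GGG, any 5 bases, CC), and 2 elements of class I promoters, the Y box (CCAAT) and the core of the X2 box (TGACG). A core of the X1 box (AGCAAC), the E-box with the letters CACGTG and its variant with the letters CATCTG were searched as well. Neighbouring matches overlap in places, as at the first capitals of HLA-C, where a Y box on the other strand runs into a kappa B match.

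HLA-B and HLA-C shared a layout: a kappa B match at -177 (HLA-B) and -172 (HLA-C) from the start site, then the X2 core at -106 and -105. A Y box match on the other strand followed at -81 (HLA-B) and -80 (HLA-C), and another on the strand of the gene at -56 in both. Each had further Y box matches elsewhere. Positions give the first base of a match counted back from the start site. Over the 246 bases of their windows that could be aligned, 226 (91.9%) were identical. B2M had 2 overlapping response element matches at -144 and -138, and TAP2 had 1 at -58. Start regions of 300 bases around the start site were found in RefSeq for 7 of the 9 genes, all except HLA-E and NLRC5. The response element core was in 5 of the 7 (B2M, ERAP1, TAP1, TAP2 and TAPBP), where 3.57% of 35116 windows of that length hold it. The X2 core was in 4 of 7 (B2M, HLA-B, HLA-C and TAP2), against 24.6% of all windows. The Y box was in 5 of 7, against 34.6%, and the kappa B site was in all 7 but also in 58.7% of all windows. The E-box, its variant and the X1 core were in 0 of 7, where 7.26%, 14.7% and 12.8% of all windows hold them. These matches describe letters in short windows and say nothing about binding. Only exact matches were counted, so a gene without a match, such as HLA-B or HLA-C for the response element, may still hold a variant of it.

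The siRNA targets were checked first. MYCN measured 1848, 1894 and 1786 CPM (reads of a gene scaled to a common library total) under siCTR, 1338, 1245 and 1285 under siMYCN and 898, 969 and 877 under siHAND2. HAND2 measured 516, 499 and 489 CPM under siCTR, 588, 557 and 568 under siMYCN and 268, 267 and 280.0 under siHAND2. HAND2 stood at 54.2% of its siCTR mean in siHAND2 and at 114% in siMYCN. MYCN was thus reduced in both knockdowns, and further by the siRNA against HAND2 (49.6% of the siCTR mean) than by its own (70.0%). Depth was 21.1 to 32.7 M reads per library, and 1 CPM carried a counting error (coefficient of variation) of 17.5% to 21.8%. The 12 neuroblastoma markers all passed the filter for testing. Of 11 immune cell markers, 5 were in the table and none was tested, and their summed level was at most 1.13 CPM in any library. The leukocyte marker PTPRC reached at most 0.0709 CPM and the monocyte marker CD14 at most 0.132 CPM. The summed level of 13 stromal and mesenchymal markers changed with the groups: it was 912 to 956 CPM in siCTR, 1150 to 1210 CPM in siMYCN and 1550 to 1750 CPM in siHAND2. Much of that sum was VIM, which averaged 525, 696 and 1010 CPM in siCTR, siMYCN and siHAND2. TWIST1 averaged 122, 118 and 121 CPM. The part of these markers in the results below was not tested. In bulk RNA, fewer cells with a transcript and less transcript per cell cannot be told apart.

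The 9 genes were expressed unevenly in control cells, with the light chain abundant and the others low or intermediate. On the scale of CPM per kilobase of transcript, which allows genes to be compared, B2M stood at 266 in siCTR, above 98.9% of 18053 genes. TAPBP followed at 4.31, ERAP1 at 1.93 and TAP2 at 1.59, between the 40.6th and the 52.8th percentile. HLA-B (0.577), HLA-C (0.433), NLRC5 (0.276), HLA-E (0.194) and TAP1 (0.0308) were lower still. TAP1 also had the lowest CPM of the 9 genes in every library. HLA-B and HLA-C did not differ beyond their spread in siCTR (0.887 ± 0.241 and 0.667 ± 0.276 CPM, SD, n = 3 libraries), and their transcript lengths are nearly equal.

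**Figure D1:**
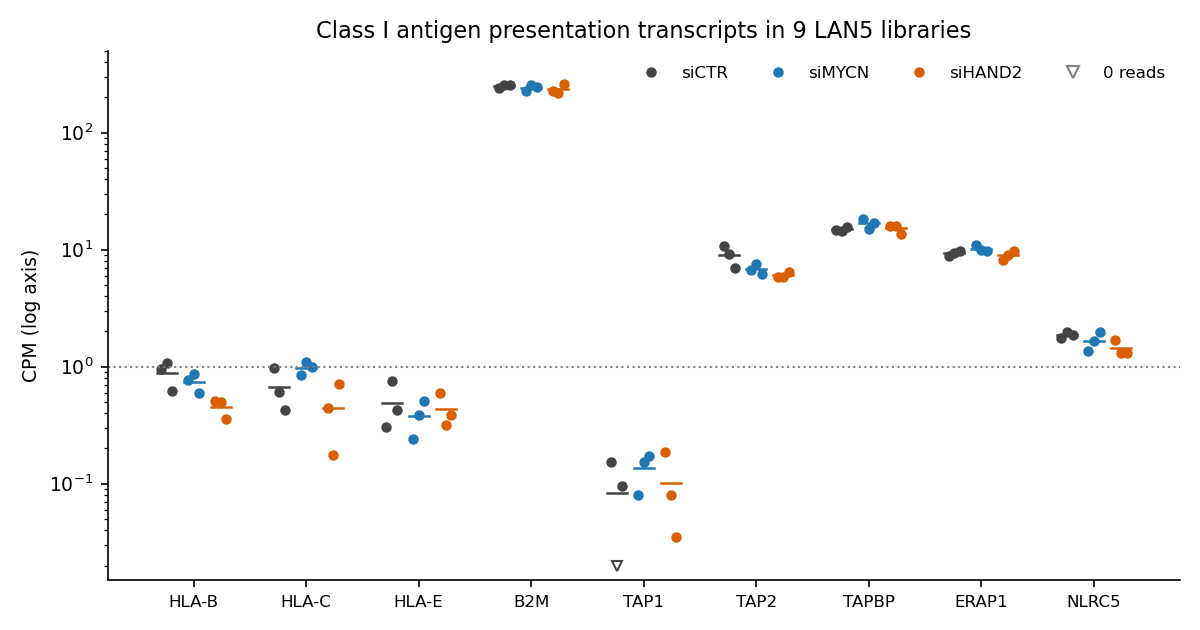
CPM of the 9 pathway genes in each of 9 libraries on a log axis. Points are libraries, short lines are group means, the open triangle is a library with 0 reads and the dotted line is the 1 CPM used for the filter. B2M lies between 216 and 259 CPM in every library, and TAP1 does not exceed 0.187 CPM.

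Genes were tested where at least 3 of the 9 libraries reached 1 CPM, which kept 14495 genes. B2M, TAP2, TAPBP, ERAP1 and NLRC5 passed. HLA-B, HLA-C, HLA-E and TAP1 did not, since 1, 1, 0 and 0 libraries reached that level. The test was limma on log2(CPM + 1), with Benjamini-Hochberg adjustment over all genes tested and a threshold of 0.05. Near 1 CPM, a difference on that scale is smaller than the fold change of the transcript itself.

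After siMYCN, 1 of the 5 tested genes was called, TAP2, which was lower. Among all genes tested, 35.9% were called in either direction and 11.4% were called lower. The median log2 fold change of the 5 genes was -0.06, beside 0.06 for all genes tested. None of the 9 genes had siMYCN libraries fully apart from the siCTR libraries, where 49.5% of tested genes and 13.1% of genes under the filter did.

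After siHAND2, 1 of the 5 was again called, TAP2, and again lower, beside 29.9% of all tested genes called in either direction and 11.8% called lower. The median log2 fold change of the 5 genes was -0.10, beside 0.04 for all genes tested. The siHAND2 libraries lay fully below the siCTR libraries for TAP2 and NLRC5 among the 5 tested genes, a separation seen in 16.6% of all tested genes. They did so for HLA-B among the 4 genes under the filter, where 4.36% of such genes did. Shares of genes under the filter, in every comparison, cover all such genes, also those with hardly any reads. They are not shares of genes at the level of HLA-B.

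Set directly against siMYCN, siHAND2 gave no call among the 5 genes by limma, where 26.9% of all tested genes were called. ERAP1 alone had an unadjusted p under 0.05. The siHAND2 libraries lay below all siMYCN libraries for ERAP1 (21.6% of all tested genes were lower in this way) and, under the filter, for HLA-B and HLA-C (6.03% of all such genes, whatever their level). Both comparisons against siCTR share the same 3 control libraries, so their results for a gene are not independent.

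Heavy chains present the peptide itself. HLA-B (chromosome 6, 31269491 to 31357188, minus strand, GRCh38), a classical heavy chain, measured 0.961, 1.08 and 0.617 CPM under siCTR and 0.765, 0.861 and 0.595 under siMYCN. In siHAND2 it measured 0.513, 0.50 and 0.354 CPM. The siHAND2 libraries were all below the other 6, while siCTR and siMYCN overlapped. The siHAND2 mean was 51.4% of the siCTR mean, but the values stood for only 10.0 to 31.4 reads per library. With no filter on low values the HLA-B change in siHAND2 was -0.37 (limma over 25084 genes, adjusted p = 0.0304), in a fit that called 6.14% of genes lower. In siMYCN the same fit gave -0.11 (limma, adjusted p = 0.576).

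HLA-C (chromosome 6, 31268749 to 31272130, minus strand), the other classical heavy chain among the 9, measured 0.968, 0.606 and 0.427 CPM under siCTR. It measured 0.85, 1.10 and 0.984 CPM under siMYCN and 0.442, 0.177 and 0.71 under siHAND2. The siMYCN libraries were above all siHAND2 libraries, and siCTR overlapped both. With no filter, siHAND2 was lower than siMYCN by limma (-0.47, adjusted p = 0.0316, in a fit that called 8.25% of genes lower), and neither knockdown was called against siCTR (adjusted p = 0.243 in siMYCN and 0.35 in siHAND2). The lowest library rested on 4.44 reads.

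The intervals of HLA-B and HLA-C in the table share 2640 bases on the same strand, because the HLA-B interval reaches far beyond the RefSeq gene (31353875 to 31357179). The values were whole numbers of reads (within 0.02) in 3 of 9 libraries for HLA-B and in 1 of 9 for HLA-C, against 9 of 9 for HLA-E. Their reference transcripts were 92.5% identical, while 2.02% of the 50-base windows of HLA-B were also found in HLA-C. How reads that fit several genes were assigned is not given in the sources used here, so both single values are uncertain. The sum of the genes, added after the data were examined, was 1.93, 1.69 and 1.04 CPM under siCTR, 1.62, 1.96 and 1.58 under siMYCN and 0.955, 0.677 and 1.06 under siHAND2. The sum was lower in siHAND2 than in siMYCN (-0.52, standard error 0.14, limma, adjusted p = 0.0132), with no overlap, where 21.6% of all tested genes were lower in this way. Against siCTR it was also called lower in siHAND2 (-0.42, standard error 0.14, limma, adjusted p = 0.0391), although siHAND2 replicate 3 lay above siCTR replicate 3. That call was lost without siCTR replicate 1 (-0.31, adjusted p = 0.176), siCTR replicate 2 (-0.37, 0.132), siHAND2 replicate 1 (-0.44, 0.0573) or siHAND2 replicate 2 (-0.33, 0.154), and also with no filter (adjusted p = 0.0572) or with the 2 groups fitted alone (adjusted p = 0.0535). The call against siMYCN was lost without siMYCN replicate 2 (-0.46, 0.0592) or siHAND2 replicate 2 (-0.43, 0.0673). In siMYCN the sum differed from siCTR by 0.10 (limma, adjusted p = 0.615).

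HLA-E (chromosome 6, 30489509 to 30494194, plus strand), a non-classical heavy chain recognised by an inhibitory receptor of NK cells, measured 0.306, 0.749 and 0.427 CPM under siCTR. It measured 0.242, 0.384 and 0.514 CPM under siMYCN and 0.592, 0.319 and 0.39 under siHAND2. All 3 groups overlapped, at 6 to 20 reads per library, and no difference was detectable at this depth.

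B2M, the light chain shared by all class I molecules (chromosome 15, 44711487 to 44718877, plus strand), measured 242, 255 and 257 CPM under siCTR, 225, 253 and 245 under siMYCN and 227, 216 and 259 under siHAND2. The groups overlapped throughout. Its log2 fold change was -0.06 in siMYCN (95% interval -0.19 to 0.07, limma, adjusted p = 0.462) and -0.10 in siHAND2 (-0.23 to 0.02, limma, adjusted p = 0.212). siHAND2 replicate 3 was the highest library of all 9, and without it B2M was called lower in siHAND2 (-0.18, limma, adjusted p = 0.013). Median-ratio rescaling of the libraries also gave a call (-0.16, adjusted p = 0.0397), and quantile normalization did not.

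TAP1 (chromosome 6, 32845209 to 32853978, minus strand), which encodes one of the transporter subunits, was close to absent. It measured 0.153, 0 and 0.0949 CPM under siCTR, 0.0805, 0.153 and 0.171 under siMYCN and 0.187, 0.0797 and 0.0354 under siHAND2. Each library held 0 to 5.7 reads, 27 in all 9 together. The count of 0 in siCTR replicate 2 allows a level of up to 0.112 CPM (3 reads), and no difference between groups was detectable.

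TAP2 (chromosome 6, 32821833 to 32838770, minus strand), which encodes the other subunit, was lower after both siRNAs. It measured 10.7, 9.23 and 6.94 CPM under siCTR (8.95 ± 1.88), 6.73, 7.58 and 6.20 under siMYCN (6.84 ± 0.692) and 5.83, 5.81 and 6.42 under siHAND2 (6.02 ± 0.345, SD, n = 3 libraries each). The siHAND2 libraries lay below all siCTR libraries, while siMYCN replicate 2 lay above siCTR replicate 3. The log2 fold change in siHAND2 was -0.49 (standard error 0.12, limma, adjusted p = 0.00511), and the call held in 18 of 18 alternative settings. In siMYCN it was -0.33 (standard error 0.12, limma, adjusted p = 0.0381), and this call was lost without siCTR replicate 1 (-0.21, 0.209), siCTR replicate 2 (-0.30, 0.115), siMYCN replicate 1 (-0.32, 0.0793) or siMYCN replicate 3 (-0.27, 0.138). The knockdowns did not differ past the threshold (-0.16, 95% interval -0.41 to 0.09, limma, adjusted p = 0.357).

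The spread of TAP2 in siCTR went with a second gene model. AL669918.1 (chromosome 6, 32813767 to 32838822, minus strand; named after its values were seen) covers all 16938 bases of TAP2 on the same strand. It also runs on to 32813767, where the TAP2 interval stops at 32821833, so its reads may also come from outside TAP2. It measured 1.37, 3.83 and 4.12 CPM under siCTR, 3.18, 3.20 and 4.04 under siMYCN and 2.39, 2.04 and 1.06 under siHAND2, so it was lowest in the siCTR library where TAP2 was highest. TAP2 values were whole reads in 1 of 9 libraries. How the counting tool shared reads between overlapping genes is not given in the sources used here, and its part in the spread was not tested. The sum of both models, added after the data were examined, was 12.0, 13.1 and 11.1 CPM under siCTR, 9.91, 10.8 and 10.2 under siMYCN and 8.22, 7.85 and 7.48 under siHAND2, and no group overlapped another. Of all tested genes, 49.5% had siMYCN fully apart from siCTR in either direction. For siHAND2, 16.6% lay fully below siCTR and 21.6% fully below siMYCN. In siHAND2 the sum was lower than in siCTR (-0.56, standard error 0.08, limma, adjusted p = 4.81e-05) and lower than in siMYCN (-0.35, standard error 0.08, limma, adjusted p = 0.00282), each in 18 of 18 alternative settings. Taken singly, AL669918.1 was lower in siHAND2 than in siMYCN (-0.69, limma, adjusted p = 0.0386), while TAP2 was not called there (-0.16, limma, adjusted p = 0.357) in any alternative. Against siCTR, AL669918.1 alone was not called in siHAND2 (-0.49, limma, adjusted p = 0.127). In siMYCN the sum stood at 85.5% of siCTR (-0.20, 95% interval -0.37 to -0.04, limma, adjusted p = 0.0513), just outside the threshold. Of 18 alternatives, 9 put it inside.

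**Figure D2:**
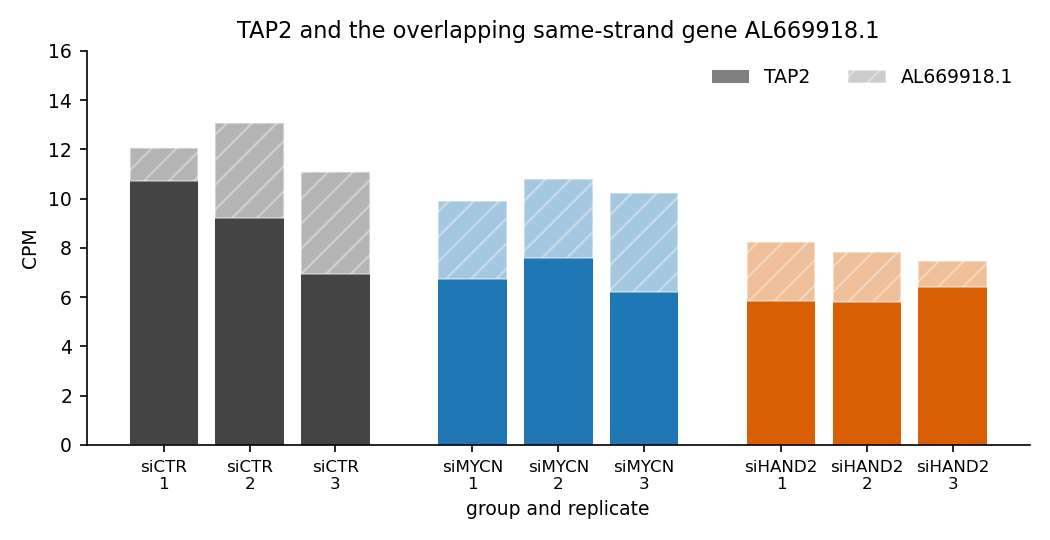
CPM of TAP2 (solid) and of the overlapping gene AL669918.1 (hatched), stacked for each of the 9 libraries. The stacked totals are 11.1 to 13.1 CPM in siCTR, 9.91 to 10.8 CPM in siMYCN and 7.48 to 8.22 CPM in siHAND2, while the solid part alone overlaps between siCTR and siMYCN.

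TAPBP (chromosome 6, 33299694 to 33314387, minus strand), the gene of tapasin, measured 14.6, 14.5 and 15.5 CPM under siCTR, 18.4, 14.9 and 17.0 under siMYCN and 15.9, 15.9 and 13.7 under siHAND2. All groups overlapped. Its log2 fold change was 0.16 in siMYCN (95% interval -0.01 to 0.33, limma, adjusted p = 0.145). Without siMYCN replicate 2, the lowest of its group, the value was 0.24 and passed the threshold (limma, adjusted p = 0.0407). In siHAND2 the change was 0.02 (-0.15 to 0.19, limma, adjusted p = 0.86), and its sign turned under both other scalings.

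ERAP1 (chromosome 5, 96760810 to 96808100, minus strand), the aminopeptidase that trims peptides in the endoplasmic reticulum, measured 8.86, 9.28 and 9.82 CPM under siCTR. It measured 11.0, 9.95 and 9.73 CPM under siMYCN and 8.15, 8.95 and 9.68 under siHAND2. The highest siHAND2 library (9.68) was just below the lowest siMYCN library (9.73). The change between the knockdowns was -0.18 (95% interval -0.35 to -0.01, limma, unadjusted p = 0.0441, adjusted p = 0.12) and did not pass the threshold. Against siCTR the siMYCN change was 0.12 (limma, adjusted p = 0.271) and the siHAND2 change -0.06 (limma, adjusted p = 0.633). ERAP1 shares 18786 bases with CAST, the calpastatin gene on the other strand (named after its values were seen), which fell by limma from 48.1 ± 1.72 CPM in siCTR to 40.9 ± 0.494 in siMYCN (adjusted p = 0.00159) and 34.2 ± 0.526 in siHAND2 (adjusted p = 1.19e-06; SD, n = 3 libraries). The use of strand in counting is not given in the sources used here, so reads in the shared stretch cannot be assigned to either gene. The rest of the ERAP1 interval lies outside CAST.

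NLRC5 (chromosome 16, 56989485 to 57083531, plus strand), a transactivator recruited to class I promoters, measured 1.77, 1.98 and 1.85 CPM under siCTR, 1.37, 1.65 and 1.99 under siMYCN and 1.68, 1.31 and 1.31 under siHAND2. The siHAND2 libraries were all below siCTR, and siMYCN overlapped both groups. The log2 fold change in siHAND2 was -0.24 (95% interval -0.50 to 0.02, limma, adjusted p = 0.151) and in siMYCN -0.11 (-0.37 to 0.15, limma, adjusted p = 0.515). Neither passed the threshold in any alternative setting that kept the gene. The libraries held 33.0 to 58.0 NLRC5 reads each.

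**Figure D3:**
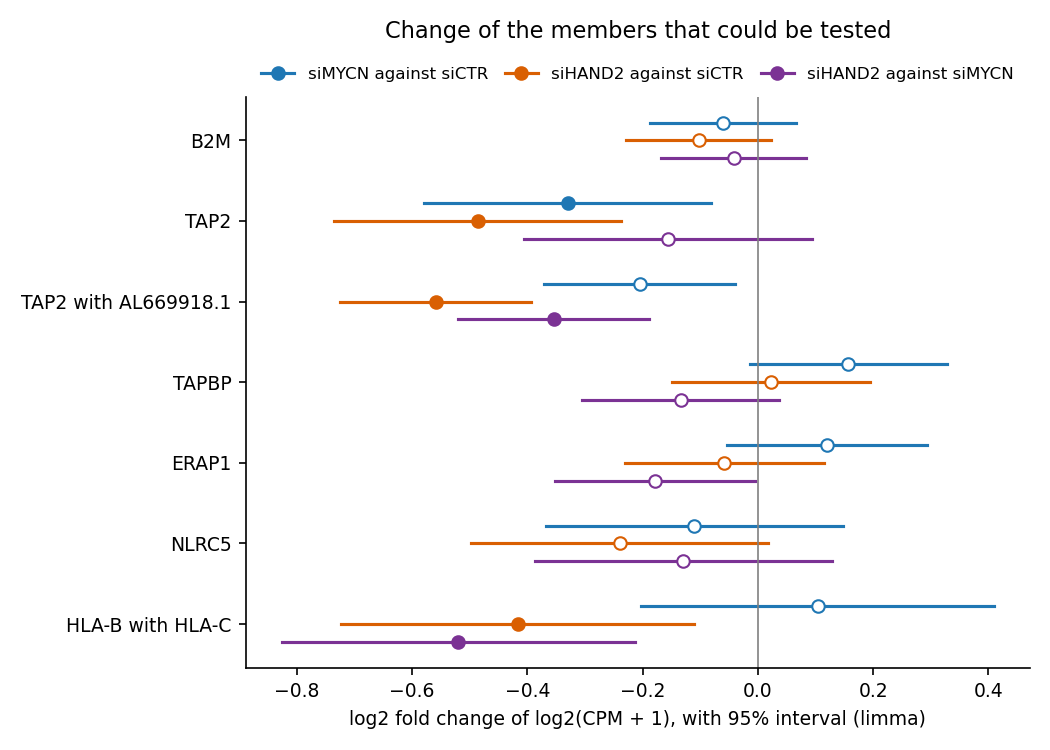
Log2 fold change of log2(CPM + 1) with its 95% interval (limma) for the 5 tested genes and for the summed models TAP2 with AL669918.1 and HLA-B with HLA-C, in 3 comparisons. Filled points passed an adjusted p of 0.05. TAP2 is filled in both comparisons with siCTR, and the intervals of B2M, TAPBP and NLRC5 include 0 in all 3.

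The other genes of the pathway that were looked up numbered 31, of which 28 were in the table and 25 were tested. HLA-F, HLA-G and PSMB9 were not analysed here. In siMYCN 8 were called higher and 2 lower, beside 24.5% and 11.4% of all genes tested. In siHAND2 4 were higher (CALR, CREB1, NFYA and IRF1) and 3 lower (LNPEP, CANX and NFKB1), beside 18.1% and 11.8% of all genes tested, so these shares were near the background. Between the knockdowns, BLMH was higher in siHAND2, and LNPEP, CANX, PDIA3, HSPA5 and RELA were lower. Of these, the CANX and PDIA3 calls held in 18 of 18 alternatives, and those of BLMH, LNPEP, HSPA5 and RELA in 14, 9, 13 and 15. Over all 25 genes the median log2 fold changes were 0.02 in siMYCN, 0.02 in siHAND2 and -0.001 between them, beside 0.06, 0.04 and -0.01 for all genes tested. The siMYCN count depended on scaling, with 1 higher and 3 lower when libraries were rescaled by the median ratio and 4 higher and 3 lower under quantile normalization, while the share of all called genes that were higher went from 68.3% as deposited to 49.7% and 49.3%.

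Among genes of peptide supply, the immunoproteasome subunit PSMB8 averaged 0.321, 0.447 and 0.249 CPM in siCTR, siMYCN and siHAND2, and the second trimming peptidase ERAP2 0.285, 0.409 and 0.169 CPM. Both were under the filter. LNPEP, an aminopeptidase of endosomal cross-presentation, fell in siHAND2 from 59.9 ± 4.51 to 49.7 ± 4.68 CPM (-0.27, limma, adjusted p = 0.00682, called in 18 of 18 alternatives). The cytosolic peptidase BLMH fell in siMYCN (-0.19, limma, adjusted p = 0.0295, 13 of 18 alternatives), and the proteasome activator subunit PSME2 rose (0.17, limma, adjusted p = 0.0397, 9 of 18 alternatives). TPP2, a cytosolic peptidase named after its values were seen, was the other gene called lower in siMYCN (-0.13, limma, adjusted p = 0.0404, 10 of 18 alternatives). The BLMH call was lost without replicate 1 or 2 of siCTR or siMYCN, the PSME2 call on leaving out any single siCTR library or replicate 1 or 2 of siMYCN, and the TPP2 call on leaving out any single library of either group. All 3 were also lost with no intensity trend, PSME2 and TPP2 with no filter, and PSME2 under both other scalings. Their adjusted p reached 0.131, 0.204 and 0.163 over the alternatives.

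Of 5 tested genes of the loading and folding step, 3 were called higher in siMYCN (PDIA3, HSPA5 and CALR), and 1 was higher (CALR) and 1 lower (CANX) in siHAND2. Among all tested genes, 24.5% were called higher in siMYCN, and 18.1% higher and 11.8% lower in siHAND2. PDIA3 (ERp57, the disulfide isomerase of the loading complex) rose in siMYCN from 429 ± 7.84 to 497 ± 9.31 CPM (0.21, limma, adjusted p = 0.000707) and was at 429 ± 15.7 CPM in siHAND2 (SD, n = 3 libraries). HSPA5, a general chaperone of the endoplasmic reticulum, rose in siMYCN by 0.21 (limma, adjusted p = 0.00817), a call lost without siCTR replicate 3 and under both other scalings (adjusted p up to 0.0718). CANX (calnexin, which folds new heavy chains) fell in siHAND2 by 0.19 on the log2 scale (limma, adjusted p = 0.00275) and was at 0.01 in siMYCN (limma, adjusted p = 0.912), where quantile normalization gave a call (0.13, adjusted p = 0.00427). The difference of CANX between the knockdowns was -0.20 (limma, adjusted p = 0.00209), and its calls in siHAND2 and between the knockdowns and those of PDIA3 held in 18 of 18 alternatives. CALR (calreticulin) was called higher in both, at 0.16 after siMYCN (limma, adjusted p = 0.00386) and 0.11 after siHAND2 (adjusted p = 0.0386), but the siHAND2 call held in only 9 of 18 alternatives. The settings that ended it included leaving out any one siCTR library, siMYCN replicate 1 or siHAND2 replicate 1. Median-ratio rescaling was among them as well (limma, adjusted p = 0.326), and also ended the siMYCN call of CALR (0.0649).

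Transcription factors of the class I promoter were tested as a list of 11 besides NLRC5. In siMYCN 4 were called higher, IRF2, RELA, NFYA and CREB1, with changes of 0.15 to 0.25, beside 24.5% of all tested genes called higher. Under median-ratio rescaling none was called, and under quantile normalization 1. Single libraries also ended the calls: siMYCN replicate 2 for RELA, replicate 3 of siCTR or siMYCN for NFYA, replicates 1 and 2 of siCTR or 3 of siMYCN for CREB1, and replicates 2 and 3 of either group for IRF2 (adjusted p up to 0.148). The IRF2 call was also lost with no filter and the CREB1 call with no intensity trend. In siHAND2 the calls were NFYA (0.18, limma, adjusted p = 0.00775), a subunit of the factor that binds the Y box, CREB1 (0.17, limma, adjusted p = 0.0247), a factor of the X2 box, IRF1 (0.41, limma, adjusted p = 0.0337) and, lower, NFKB1 (-0.17, limma, adjusted p = 0.0345), so 3 of 11 were higher and 1 lower. Over all tested genes in siHAND2, 18.1% were called higher and 11.8% lower. Of the list genes, IRF1 and NFKB1 were named after their values were seen. Of these, the NFYA call held in 18 of 18 alternatives. The CREB1 call was lost without siCTR replicate 1 or 2 or siHAND2 replicate 2 or 3, the IRF1 call without siCTR replicate 1 or 3 or siHAND2 replicate 1, and the NFKB1 call without any siCTR library or siHAND2 replicate 2 or 3 (adjusted p up to 0.163). Median-ratio rescaling ended the CREB1 (adjusted p = 0.0942) and IRF1 (0.0528) calls and quantile normalization that of IRF1 (0.111). The CREB1 call was also lost with no intensity trend, the IRF1 and NFKB1 calls with no filter, and the NFKB1 call with the 2 groups fitted alone.

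Among 13 tested interferon receptors and signalling genes, the largest difference between the knockdowns was that of JAK1, the kinase shared by type I and type II interferon receptors. JAK1 measured 146, 136 and 138 CPM under siCTR, 202, 198 and 228 under siMYCN and 117, 121 and 120 under siHAND2. No group overlapped another, where 49.5% of all tested genes had siMYCN apart from siCTR in either direction. Among the same genes, 16.6% had siHAND2 fully below siCTR and 21.6% fully below siMYCN. JAK1 rose in siMYCN (0.58, limma, adjusted p = 4.65e-07), fell in siHAND2 (-0.22, limma, adjusted p = 0.0035), and differed between them by -0.80 (limma, adjusted p = 3.90e-09), each in 18 of 18 alternatives. Of these 13 genes, 5 were higher and 0 lower in siMYCN, and 4 were higher and 2 lower in siHAND2, beside 24.5% higher and 11.4% lower of all tested genes in siMYCN and 18.1% and 11.8% in siHAND2. Their median log2 fold changes were 0.20 and 0.04, beside 0.06 and 0.04 for all genes tested. STAT2, which carries the type I signal, rose in siMYCN (0.36, limma, adjusted p = 0.000606), and the type I receptor chain IFNAR1 rose in both knockdowns (0.22 and 0.23, limma, adjusted p = 0.00918 and 0.00809). JAK2, the second kinase of the type II receptor, rose in siHAND2 (0.29, limma, adjusted p = 0.0156), a call lost without siCTR replicate 2 or siHAND2 replicate 2 (adjusted p up to 0.0978). IFNGR1, the ligand-binding chain of the type II receptor (named after its values were seen), fell in siHAND2 by 0.22 on the log2 scale (limma, adjusted p = 0.00965). The other calls, likewise named afterwards, were IFNAR2 (0.29) and IRF9 (0.47) in siMYCN and IRF9 (0.46) and SOCS3 (0.49) in siHAND2, all higher. Both IRF9 calls were lost under quantile normalization (adjusted p = 0.0629 and 0.0829), with no filter and without siCTR replicate 3. The siMYCN call of IRF9 was also lost without siMYCN replicate 2, its siHAND2 call without siHAND2 replicate 1 or 2, and the IFNAR2 call without siCTR replicate 2 (adjusted p up to 0.11).

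Interferon-stimulated genes were largely low. Of 34 looked up, 25 were in the table and 17 were tested, and their summed level was 192 to 196 CPM in siCTR, 199 to 213 CPM in siMYCN and 199 to 216 CPM in siHAND2. Most of that sum came from IFIT5 (named after its values were seen), IFI44 and UBE2L6, which averaged 74.5, 42.6 and 41.5 CPM in siCTR. BST2, MX1, IFITM1 and ISG15 averaged at most 0.516 CPM in any group. In siMYCN 3 were higher and 1 lower, beside 35.9% of all tested genes called, and under either rescaling 1 was higher and 2 lower. In siHAND2 5 were higher and 1 lower, beside 29.9% of all tested genes called, and the rescalings gave 4 and 3 higher and 1 lower. The median log2 fold changes of the 17 genes were 0.17 and 0.10. IFI44 (0.21, limma, adjusted p = 0.0242) and UBE2L6, the conjugating enzyme for ISG15 (0.13, limma, adjusted p = 0.0297), rose in siMYCN, but neither was called after either rescaling, nor IFI44 with no intensity trend. The UBE2L6 call was lost without any siCTR or siMYCN library (adjusted p up to 0.231), and the IFI44 call without siCTR replicate 1 or 3 or siMYCN replicate 2 or 3 (adjusted p up to 0.108). DTX3L, a ubiquitin ligase, rose in siHAND2 (0.43, limma, adjusted p = 0.00968), a call lost without siCTR replicate 2 (adjusted p = 0.0651). The remaining calls, named after their values were seen, were of genes that averaged at most 5.05 CPM in any group. In siMYCN these were SAMD9 (1.08, limma, adjusted p = 1.80e-06) and HERC5 (-0.66, limma, adjusted p = 0.000521), and in siHAND2 GBP2, SAMD9, IFIT3 and DDX58, which were higher, and OAS1, which was lower. The DDX58 call held in only 4 of 17 alternatives. Settings that ended it included both rescalings (limma, adjusted p = 0.0808 and 0.128) and leaving out any single library but siCTR replicate 1 (adjusted p up to 0.177). The IFIT3 call was lost under quantile normalization (adjusted p = 0.0723) and without replicate 2 or 3 of siCTR or siHAND2 (up to 0.14), and the OAS1 call without siCTR replicate 1 or siHAND2 replicate 2 (up to 0.0672).

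**Figure D4:**
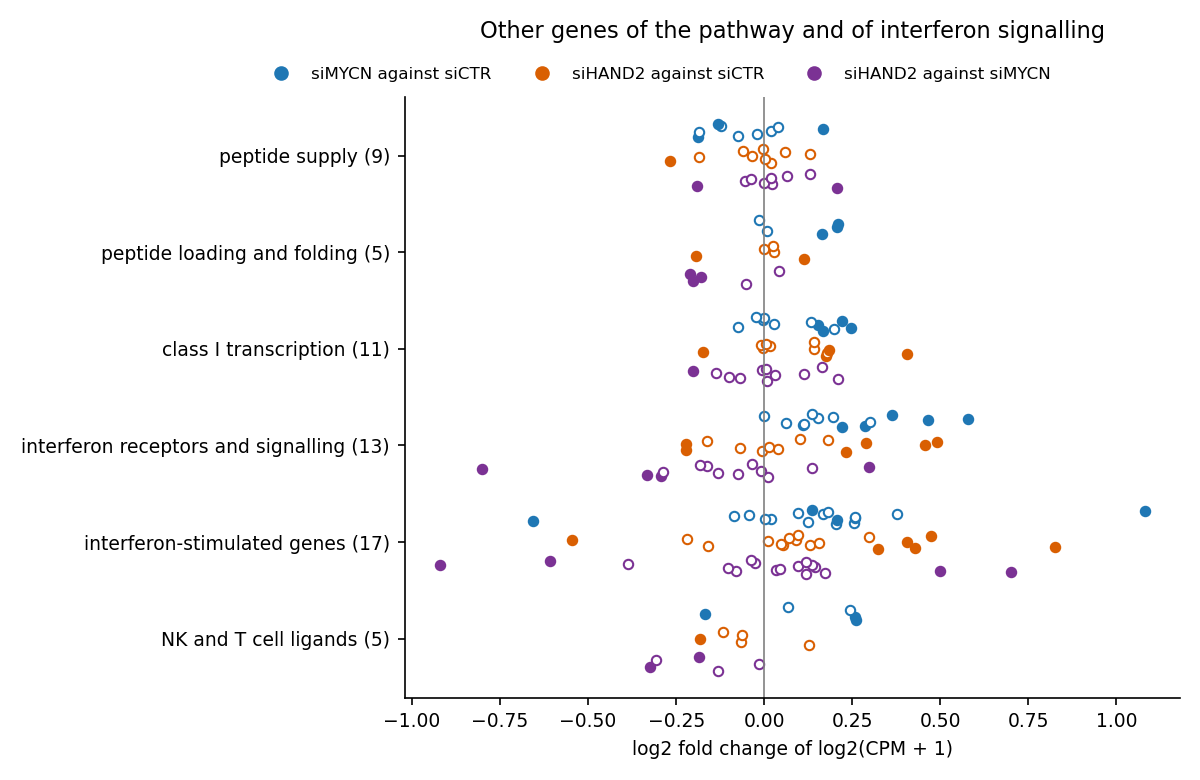
Log2 fold change of log2(CPM + 1) for each tested gene of 6 lists, with the number of tested genes in parentheses, in 3 comparisons. Filled points passed an adjusted p of 0.05 (limma). JAK1 is the siMYCN point at 0.58 and the leftmost siHAND2 against siMYCN point (-0.80) in its list.

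Other routes of immune recognition were looked up as well. Of 13 class II genes, 6 were in the table, 4 were tested and none was called against siCTR. Among all tested genes, 35.9% were called in siMYCN and 29.9% in siHAND2. HLA-DPA1 was lower in siHAND2 than in siMYCN (-0.43, limma, adjusted p = 0.0291; named after its values were seen), a call lost in 4 of 17 alternatives, each of which left out a library of those groups (adjusted p up to 0.135). CIITA, the class II transactivator related to NLRC5, averaged 3.38, 3.22 and 3.12 CPM in siCTR, siMYCN and siHAND2. Of the NK and T cell ligands, 5 were tested, and 2 were higher and 1 lower in siMYCN, with 1 lower in siHAND2. Beside these counts, 24.5% of all tested genes were called higher and 11.4% lower in siMYCN, and 11.8% lower in siHAND2. CD276 (B7-H3) rose in siMYCN from 103 ± 3.34 to 123 ± 6.79 CPM (0.26, limma, adjusted p = 0.00131). CD47, a signal against phagocytosis, rose in siMYCN from 152 ± 2.31 to 181 ± 7.0 CPM (0.26, limma, adjusted p = 0.00112) and was lower in siHAND2 than in siMYCN (-0.32, limma, adjusted p = 0.000175). Those calls held in 18 of 18 alternatives. NCR3LG1, a ligand of an activating NK receptor, fell in both knockdowns by 0.17 and 0.18 (limma, adjusted p = 0.0179 and 0.0139), with both calls lost without siCTR replicate 2, the first also without siMYCN replicate 2 or with no intensity trend, and the second without siHAND2 replicate 1 or 2 (adjusted p up to 0.0838 over all alternatives).

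Markers of the cells themselves also changed. In siMYCN 11 of 12 neuroblastoma markers were higher and none lower, and in siHAND2 4 were higher and 3 lower. Of all tested genes, 24.5% were called higher and 11.4% lower in siMYCN, and 18.1% and 11.8% in siHAND2. The noradrenaline-synthesising enzyme DBH measured 263 ± 18.2 CPM in siCTR and 130 ± 5.65 CPM in siHAND2 (-1.01, limma, adjusted p = 6.84e-10). By contrast, NEFM rose after siHAND2 by 1.39 on the log2 scale, the largest change of the 12 markers there, and STMN2 rose by 0.95. After siMYCN the largest changes were those of STMN2 (0.71) and CHGB (0.70), and DBH rose as well (0.38). CHGB was not called after siHAND2 (-0.03). Of 11 tested stromal and mesenchymal markers, 7 were higher in siMYCN, and 8 were higher and 2 lower in siHAND2. The shares of all tested genes given above stand beside these counts as well. The proteoglycan LUM rose from 9.15 ± 0.142 CPM in siCTR to 17.2 ± 0.617 in siMYCN (log2 fold change 0.84) and 54.7 ± 4.40 in siHAND2 (2.45; SD, n = 3 libraries). Whether these changes have a part in the class I values was not tested.

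The genes most like B2M over the 9 libraries, by Pearson correlation of log2(CPM + 1), were SLC38A9 (0.964), CACYBP (0.962) and SACM1L (0.956). Of 11197 genes compared, 91 reached 0.8 with B2M. NLRC5 was most like ARPC1B (0.883), ERMP1 (0.88) and TUNAR (0.876), and 22 genes reached 0.8. These are descriptions over 9 libraries that share 1 line, with depth and group differences included. Among the 9 pathway genes themselves, the highest correlation was that of HLA-B with TAP2 (0.835) and the lowest that of B2M with TAPBP (-0.622). NLRC5 correlated with HLA-E at 0.657, with HLA-B at 0.532, with B2M at 0.461 and with TAP2 at 0.443. Its values were lower with HLA-C (0.274), TAP1 (0.24), TAPBP (-0.0575) and ERAP1 (-0.187). HLA-E rested on 6 to 20 reads per library.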

How the data were processed

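The authors deposited 1 table of CPM values (counts per gene divided by the library total) for 9 libraries of LAN5 RNA. STAR 2.5.1, Partek and the build hg19 (GRCh37) are named in the submitters' processing notes, while the coordinates in the table fit GRCh38: of 18215 symbols also in RefSeq GRCh38.p14, 91.4% had a start within 5000 bases. Coordinates are printed as GRCh38. The annotation, the use of strand and the rule for overlapping genes are not given in the sources used here. A constant of 1e-04 CPM was subtracted. Depth came from the smallest step between low values, of which 79.6% to 81.1% were whole multiples, so no count model was used. Read numbers cover counting error only.

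Groups follow the labels. limma 3.58.1 (R 4.3.3; lmFit, then eBayes with trend, 10.1 prior df) was fitted to log2(CPM + 1) of the 14495 genes that reached 1 CPM in 3 or more libraries, all 9 libraries in 1 fit. Tests were two-sided. Levels per kilobase used transcript lengths from GENCODE 44 on GRCh37, by symbol. The script was tested on simulated data.

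The genes and lists were chosen with earlier results of these data known. Named are the 9 genes, MYCN, HAND2, per list the 2 genes with the largest change in each knockdown among those called with a mean of at least 5 CPM, regulators and defining markers, and the 3 genes most correlated with B2M and with NLRC5. Some genes are not reported here. Others are marked as named after their values were seen. Alternatives covered pseudocounts, filters, rescaling, the samples in the fit, the trend, the replicate block and each library left out. Summed gene models, and all alternatives of the other named genes, were added after the data were examined.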

Additional observations from a re-analysis of the deposited data

How the results depend on the processing

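The number of the 9 genes called was 1 in siMYCN and 1 in siHAND2 against siCTR, and 0 between the knockdowns. With no filter on low values these counts were 0, 2 and 1, the additional calls being HLA-B in siHAND2 and HLA-C between the knockdowns. Median-ratio rescaling gave 2 in siHAND2 through B2M, and a fit with no intensity trend gave 0 in siMYCN. Leaving out each library in turn gave 0 to 2 in siMYCN, 1 to 2 in siHAND2 and 0 between the knockdowns. The TAP2 call in siMYCN was also lost with no filter (adjusted p = 0.093) and with no intensity trend (adjusted p = 0.0713). No called value changed its direction in any alternative, including those of the other named genes. Under a filter of 5 CPM NLRC5 was not tested. Replicate numbers were not taken to pair the libraries, since the labels name nothing they share and not every pair correlated above 0.1. Deviations from the group means correlated at -0.04 to 0.305 over 9 pairs with the same number, 6 of them above 0.1, and at -0.296 to 0.141 over 18 pairs with other numbers. As a hint from the data, 7 of 9 libraries correlated best with their own number, and the block raised the calls over all genes from 5209 to 5895 in siMYCN, from 4339 to 5089 in siHAND2 and from 3892 to 4689 between the knockdowns. With the replicate number as a block the counts stayed at 1, 1 and 0 (TAP2 adjusted p = 0.0181 in siMYCN and 0.00136 in siHAND2, limma). The sum of TAP2 and AL669918.1 then passed in siMYCN (limma, adjusted p = 0.0407). At 10.0 to 31.4 reads for HLA-B and fewer for HLA-E and TAP1, depth limits what could be seen. With 1 siRNA per target, effects of the siRNA and of the target cannot be told apart. MYCN RNA stood at 49.6% of its siCTR mean in siHAND2 and at 70.0% in siMYCN. Lower HAND2 and lower MYCN therefore cannot be told apart in siHAND2, or in its differences from siMYCN.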
